A study of Homo sapiens with 6 samples.

Results

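The 10 genes described here encode proteins of the desmosome and the plakin linkers related to them. They were taken by symbol from the series table: the desmosomal cadherins DSG2 and DSC2, the armadillo proteins JUP, PKP2, PKP3 and PKP4, and the plakins DSP, PPL, EVPL and DST. All 10 were found among 26364 genes in the table, and all 10 passed the filter on low values, as did 16032 genes in all. T47D is an established line of human luminal A breast cancer cells. The cells were transfected with siELF5, an siRNA against the ETS transcription factor gene ELF5, or with the control siRNA siNC, and total RNA was taken 48 h later. Each group held 3 libraries and received 1 siRNA product, and the products carry different catalogue numbers, so every difference compares both the products and their targets. Whether the replicates came from separate cultures is not in the labels, so the p-values rest on a spread between libraries that may be only technical.

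Desmosomes are adhesive junctions that tie the keratin filaments of neighbouring epithelial cells together. Outside the cell, desmoglein and desmocollin cadherins bind one another across the gap. Inside, their tails hold plakoglobin and the plakophilins, which recruit desmoplakin, and desmoplakin holds keratin. Other plakins link keratin to further sites: periplakin and envoplakin to the desmosomal plaque and the cornified envelope of stratified epithelia, and dystonin to the hemidesmosome at the basement membrane. In mammary luminal cells, desmosomes hold together the inner cell layer of ducts and alveoli.

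Assigned reads came to 72.4 M to 83.7 M per siELF5 library and 66.8 M to 83.3 M per siNC library (M, 1e6 reads), and the members had between 1983 and 69240 reads in every library, so counting error was small for them. ELF5 itself averaged 3680 ± 43.7 normalised read counts in siELF5 and 13094.5 ± 164 in siNC (SD, n = 3 each), so the target matched the labels of all 6 libraries. All 8 luminal markers looked for were measured. As deposited ESR1 (log2 fold change 0.45), FOXA1 (0.31), XBP1 (0.23) and GATA3 (0.15) rose, KRT8 and KRT18 fell and 2 did not pass; of the 4 that rose, ESR1 alone passed in all 3 fits described below. Of the 5 stratified keratinocyte markers KRT10 rose (0.24), KRT1 did not pass (-0.24) and DSG1 had 0 reads, and the summed level of the list was 2761 to 3169 in siELF5 and 2417 to 2632 in siNC, nearly all of it KRT10. Of the basal markers, KRT5 and KRT14 averaged 9.38 and 10.4 normalised read counts in siELF5, and 7.26 and 9.53 in siNC. The summed level of the 4 immune markers was 173 to 206 in siELF5 and 146 to 166 in siNC. That of the 3 endothelial markers was 12.3 to 14.5 in siELF5 and 26.4 to 37.8 in siNC. Among them VWF fell as deposited (-1.14, limma adjusted p = 0.0129), on at most 37 reads in any library, but did not pass in all 3 fits. The summed level of the 5 fibroblast markers was 3237 to 3777 in siELF5 and 4043 to 5205 in siNC, nearly all of it COL1A1. As deposited COL1A1 fell (-0.42, SE 0.0792, limma adjusted p = 0.00088), and it passed downward in all 3 fits described below. The siELF5 and siNC libraries also differed in how GC-rich transcripts were represented: the library GC score, a log2 difference between GC-rich and middle genes, was 0.22 to 0.28 in siELF5 and -0.39 to -0.07 in siNC, without overlap.

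Of the 10 members, 7 changed (limma adjusted p under 0.05), of which 4 rose and 3 fell, against 47.1% of all genes tested. In one direction at a time, 23.8% of all tested genes rose and 23.3% fell. DST, PKP4 and PKP2 fell, while PKP3, JUP, PPL and EVPL rose. DSP, DSG2 and DSC2 did not pass. The 4 genes that rose were those with the most GC-rich transcripts (59.5% to 66.7%), and the other 6 lay between 38.9% and 47.9%. The median log2 fold change was -0.01 over the members and 0.00155 over all tested genes. In bulk RNA, fewer cells with a transcript and less of it per cell cannot be told apart.

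Because DST and PKP4 were the members whose fall held in all 3 fits described below, their start regions are shown. The RefSeq table (GRCh38.p14) holds 11 windows for 6 members, each from 250 bases before to 50 bases after a start site: 3 for DST, 2 each for PKP4, JUP and DSC2, and 1 each for DSP and DSG2. No window was held for PKP2, PKP3, PPL or EVPL. DST has 35 transcripts in GENCODE 29. The 3 windows held for it lie at chr6:56954781-56955080, chr6:56851856-56852155 and chr6:56642840-56643139, all on the minus strand. The PKP4 windows lie at chr2:158456702-158457001 and chr2:158457643-158457942 on the plus strand. Capitals mark AGGAAG, letters around the core that ETS factors bind, on either strand (CTTCCT on the other).
DST start 1: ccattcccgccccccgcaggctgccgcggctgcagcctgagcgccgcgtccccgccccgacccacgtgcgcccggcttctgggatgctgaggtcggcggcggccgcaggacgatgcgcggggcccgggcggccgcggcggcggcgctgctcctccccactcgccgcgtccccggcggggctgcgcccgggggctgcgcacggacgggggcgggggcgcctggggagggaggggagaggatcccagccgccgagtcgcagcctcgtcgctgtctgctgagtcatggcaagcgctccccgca
DST start 2: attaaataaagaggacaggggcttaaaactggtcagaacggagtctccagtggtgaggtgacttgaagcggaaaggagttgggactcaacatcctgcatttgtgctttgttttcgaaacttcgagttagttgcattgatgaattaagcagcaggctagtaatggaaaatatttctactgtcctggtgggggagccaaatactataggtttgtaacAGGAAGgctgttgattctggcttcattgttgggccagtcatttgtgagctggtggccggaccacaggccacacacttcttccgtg
DST start 3: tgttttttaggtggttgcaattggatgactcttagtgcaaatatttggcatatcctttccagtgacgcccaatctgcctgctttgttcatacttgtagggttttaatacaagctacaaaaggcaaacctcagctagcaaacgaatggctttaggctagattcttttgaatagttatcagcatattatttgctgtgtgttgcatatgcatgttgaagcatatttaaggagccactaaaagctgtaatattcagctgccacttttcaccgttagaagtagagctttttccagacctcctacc
PKP4 start 1: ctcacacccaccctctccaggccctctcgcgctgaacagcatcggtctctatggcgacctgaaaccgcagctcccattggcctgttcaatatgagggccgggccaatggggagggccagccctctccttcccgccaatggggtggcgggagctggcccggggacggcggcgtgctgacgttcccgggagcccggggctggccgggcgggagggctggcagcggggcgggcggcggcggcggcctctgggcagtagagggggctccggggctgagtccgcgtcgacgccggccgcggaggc
PKP4 start 2: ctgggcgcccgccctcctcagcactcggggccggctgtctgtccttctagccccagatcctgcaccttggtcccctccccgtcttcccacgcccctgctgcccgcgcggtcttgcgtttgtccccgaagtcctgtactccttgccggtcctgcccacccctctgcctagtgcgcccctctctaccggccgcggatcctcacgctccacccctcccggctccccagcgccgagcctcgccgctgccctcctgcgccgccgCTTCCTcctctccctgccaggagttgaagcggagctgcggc
The letters occurred once in the second DST window, beginning 35 bases before the start (position -35, with the start as 1), and once in the second PKP4 window, as CTTCCT beginning at position 10. None of the other 9 member windows held them. The letters were thus in 18.2% of the 11 member windows, against 33.6% of 35116 windows of all genes. DST and PKP4 each had more than 1 window, and no share per gene was taken. The core alone, GGAA or TTCC, was in every member window. It had 1 match in the DSG2 window, 4 in the second JUP window and 9 in the second DSC2 window. No share over all genes was taken for the core. The table counts reads per gene, so which start was in use was not measured.

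Levels were compared between genes per kb of the longest GENCODE 29 transcript. JUP was the most abundant member in both groups, with 16432 ± 119 normalised read counts per kb in siELF5 and 12929 ± 1204 in siNC (SD, n = 3 each), and DSP followed with 6375 ± 181 in siELF5 and 6459 ± 252 in siNC. In siELF5 the order went on with PKP3 and DSG2, whose ranges overlapped (1902 to 2167 and 1937 to 2052), then EVPL, PKP4, PPL, DST, PKP2 and DSC2, each clear of its neighbour. In siNC it went on with PKP4 and DSG2, which overlapped (1986 to 2018 and 1973 to 2027), then PKP3 and EVPL, which also overlapped (1264 to 1673 and 1187 to 1526), and then DST, PPL, PKP2 and DSC2. By mean, PKP3 thus stood 3rd of 10 per kb in siELF5 and 5th in siNC, and PKP4 6th in siELF5 and 3rd in siNC. The levels per kb were not corrected for the GC difference between the groups. By this length DSC2 was the lowest, at 312 ± 2.03 per kb in siELF5 and 329 ± 10.5 in siNC. The longest DSC2 transcript has 12325 bases, and the longest 3' UTR annotated for the gene has 9175. Its value per kb rests on this annotation, and the transcript form in use was not measured. Over all annotated exon bases in place of the longest transcript, JUP and DSP stayed first and second, and DST, whose exons span 42.3 kb in all, dropped below PPL in siNC. By this measure PKP3 stood 4th in siELF5 and 6th in siNC, PKP4 6th in siELF5 and 4th in siNC, and in siELF5 PKP2 (302 per kb) lay below DSC2 (308 per kb).

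**Figure D1:**
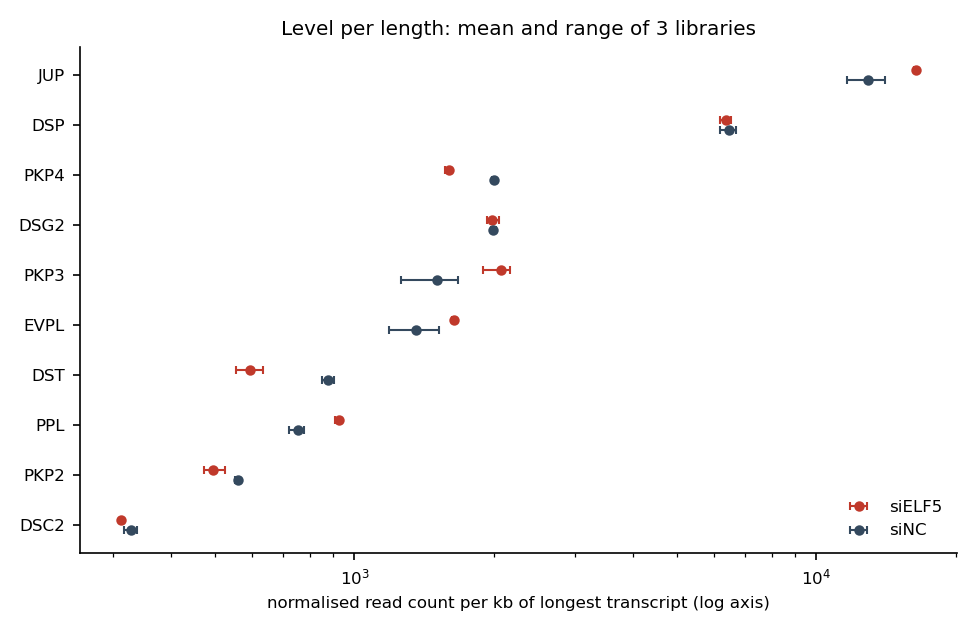
Normalised read count per kb of the longest transcript (log axis) for the 10 genes, with siELF5 above siNC for each gene; points are means and bars the range of 3 libraries. JUP and DSP stand above the other 8 genes in both groups, and DSC2 is lowest.

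The desmosomal cadherins differed little. DSG2, the desmoglein of simple epithelia, had 11547, 11966 and 11293 normalised read counts in siELF5 and 11817, 11504 and 11539.8 in siNC. The groups overlapped throughout, and the log2 fold change was -0.00260 (95% interval -0.07 to 0.07, limma adjusted p = 0.958). DSC2, its desmocollin partner, had 3823, 3872 and 3841 in siELF5 and 4164, 4092 and 3912 in siNC. All 3 siELF5 values lay below the 3 siNC values, yet the difference of -0.08 (95% interval -0.16 to 0.01) did not pass (limma adjusted p = 0.132). DSG2-AS1, an antisense gene, covers 2.76% of the exon bases of DSG2, and the kit does not mark strand, so their reads cannot be told apart there.

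DSP, the obligate link from the plaque to keratin, likewise showed no detectable difference. Its counts were 62705, 60562 and 64090.1 in siELF5 and 65600.1, 63529 and 60678 in siNC, and the ranges overlapped. The log2 fold change was -0.0184 (95% interval -0.09 to 0.06, limma adjusted p = 0.689).

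JUP, plakoglobin, which binds the tails of both cadherin types and also of classical cadherins, rose. It had 57644, 56987 and 57757 normalised read counts in siELF5 and 40762, 45743 and 49131 in siNC. The siELF5 libraries lay close together above all siNC libraries, and the siNC libraries were spread, with an SD of 9.31% of their mean against 0.723% in siELF5. The mean in siELF5 was 127% of that in siNC, with a log2 value of 0.35 (SE 0.0511, limma adjusted p = 0.000119).

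As deposited the 3 plakophilins went different ways, and after GC correction all 3 fell. PKP3, the most widely expressed plakophilin of epithelia, had 6087, 6049 and 5343 in siELF5 and 3551, 4438 and 4699 in siNC. As deposited it was the largest rise among the members, at 138% of the siNC mean and 0.47 on the log2 scale (SE 0.0849, limma adjusted p = 0.000598), and its siNC libraries were also the most spread of any member (SD 14.2% of the mean). Its direction turned after GC correction, to -0.24. PKP2, the plakophilin of simple epithelia and heart, had 2257, 2086 and 2037 in siELF5 and 2429, 2366 and 2433 in siNC. The groups did not overlap, and PKP2 fell by 0.18 on the log2 scale (SE 0.0503, limma adjusted p = 0.00993).

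PKP4, also called p0071, a relative of p120-catenin found at both desmosomes and adherens junctions, fell. Its counts were 9370.4, 9069 and 9264 in siELF5 and 11471, 11636 and 11659 in siNC. Both groups were tight (SD 1.66% of the mean in siELF5 and 0.884% in siNC) and lay well apart, with siELF5 at 79.7% of the siNC mean and a fall of 0.33 on the log2 scale (SE 0.0308, limma adjusted p = 3.18e-06). PKP4-AS1, an antisense gene, covers 4.39% of its exon bases, so reads there cannot be told apart.

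DST, dystonin, a giant plakin whose epithelial form anchors keratin at hemidesmosomes, changed most of the 10. It had 13345, 12448 and 14240.4 normalised read counts in siELF5 and 20246, 19736 and 19058 in siNC. Every siELF5 library was below every siNC library, and the siELF5 mean was 67.8% of the siNC mean, a fall of 0.56 on the log2 scale (SE 0.0444, limma adjusted p = 6.81e-07). Only 4.29% of all tested genes had a lower log2 fold change. The epithelial, muscle and neuronal forms of DST share the gene's row, so which form fell was not measured.

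PPL and EVPL, periplakin and envoplakin, which bind each other and are cross-linked into the cornified envelope in skin, both rose as deposited, but EVPL fell after GC correction (-0.26). PPL had 5826, 5660.0 and 5823 in siELF5 and 4494, 4759 and 4853 in siNC, and EVPL had 10869, 10766 and 10947 in siELF5 and 7850.3, 9019 and 10095 in siNC. Neither gene's groups overlapped, but for EVPL the highest siNC library came close to siELF5. The log2 fold change was 0.30 for PPL (SE 0.0395, limma adjusted p = 5.79e-05) and 0.28 for EVPL (SE 0.0664, limma adjusted p = 0.0038). Without siNC replicate 1 the value for EVPL was 0.19 and still passed (limma adjusted p = 0.00229); without an intensity trend it did not (limma adjusted p = 0.0668).

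The groups did not overlap for 8 members (55.9% of all tested genes). In 4 of them siELF5 lay above siNC (27.9% of tested genes) and in 4 below (28% of tested genes). In the authors' deposited table, 7 members had an adjusted p under 0.05, against 41.1% of the genes given one there.

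**Figure D2:**
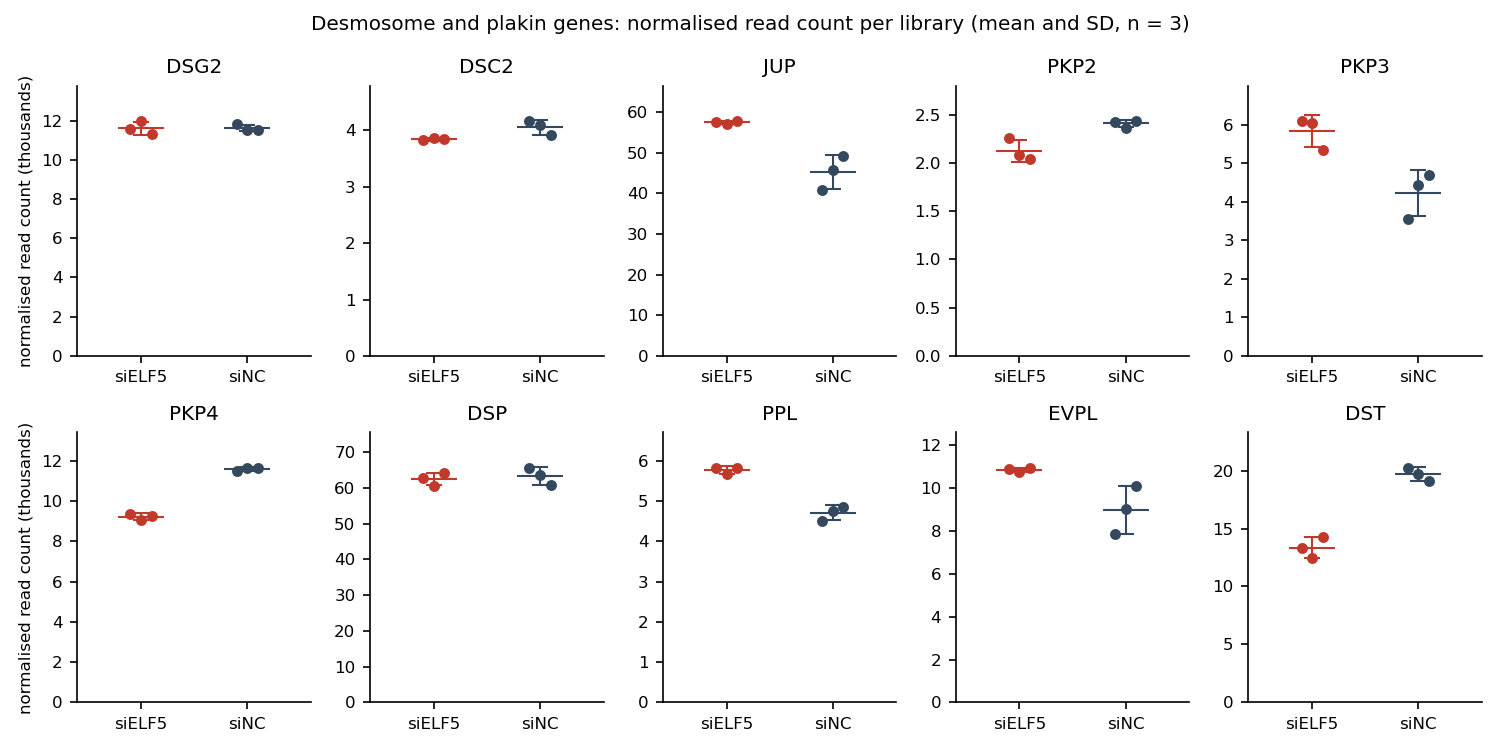
Normalised read count for each of the 10 genes, siELF5 left and siNC right, with the 3 libraries as points and the mean and SD as bars. DST, PKP4, PKP2 and DSC2 lie lower in siELF5 without overlap, and JUP, PKP3, PPL and EVPL higher. The siNC points of JUP, PKP3 and EVPL are more spread, relative to their mean, than those of the other genes.

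The rises went with base composition. JUP, PPL, EVPL and PKP3 were each lowest in siNC replicate 1 and highest in siNC replicate 3, as were GC-rich genes in general: in the tenth of tested genes with the highest GC content, to which EVPL and PKP3 belong, the median deviation from the siNC mean was -0.16, 0.02 and 0.14 in siNC replicates 1, 2 and 3, and 0.42, 0.46 and 0.42 in siELF5 replicates 1, 2 and 3 (log2). In that class 62.2% of genes rose and 3.48% fell, and the class median was 0.42, so PKP3 was near the middle of its class (53.5% of the class had a lower value) and EVPL in its lower part (36.2%). JUP and PPL belong to the next class, with a median of 0.11, where 74.1% and 70.0% of genes had a lower value. By contrast DST and PKP4 lay at the low end of theirs: 5.09% and 11.2% of genes of like GC content had a lower log2 fold change, and the class medians were both -0.04.

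**Figure D3:**
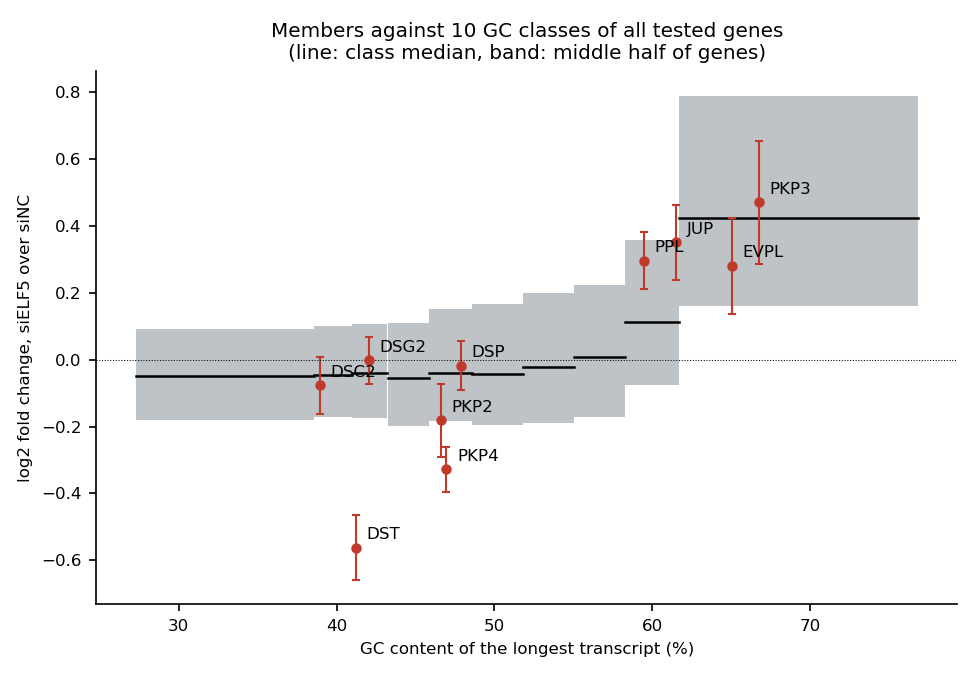
Log2 fold change of siELF5 over siNC against the GC content of the longest transcript, for the 10 genes (points with 95% intervals) and for 10 classes of all tested genes (line, median; band, interquartile range). PKP3, EVPL, JUP and PPL lie within the bands of the GC-rich classes, and DST and PKP4 lie below the band of theirs.

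After a per-library correction for GC content, 7 members again passed (50.1% of all genes tested), but not in the same directions: 2 rose and 5 fell, against 21.5% and 28.6% of all genes. EVPL and PKP3 then had log2 fold changes of -0.26 (limma adjusted p = 3.49e-06) and -0.24 (limma adjusted p = 0.000149), and JUP and PPL were smaller at 0.08 and 0.14. DST (-0.53), PKP4 (-0.31) and PKP2 (-0.16) kept their direction and passed. DSG2 (0.04), DSC2 (-0.05) and DSP (-0.01) again did not pass. The GC scores of the siRNA groups do not overlap, so a shared change of GC-rich genes is removed whether it came from the libraries or the cells. When the GC score of each library entered as a covariate, 2 members passed (7.15% of all genes), none higher (3.17% of all genes) and 2 lower (3.98% of all genes): DST (-0.39, SE 0.0989, limma adjusted p = 0.0194) and PKP4 (-0.35, SE 0.0824, limma adjusted p = 0.013). Values for the 4 GC-rich members were then -0.22 for EVPL, -0.13 for PKP3, -0.0219 for JUP and 0.15 for PPL, and DSP had 0.16 (limma adjusted p = 0.236). DST and PKP4 were thus the 2 members that passed in the same direction in all 3 fits, against 6.77% of genes.

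**Figure D4:**
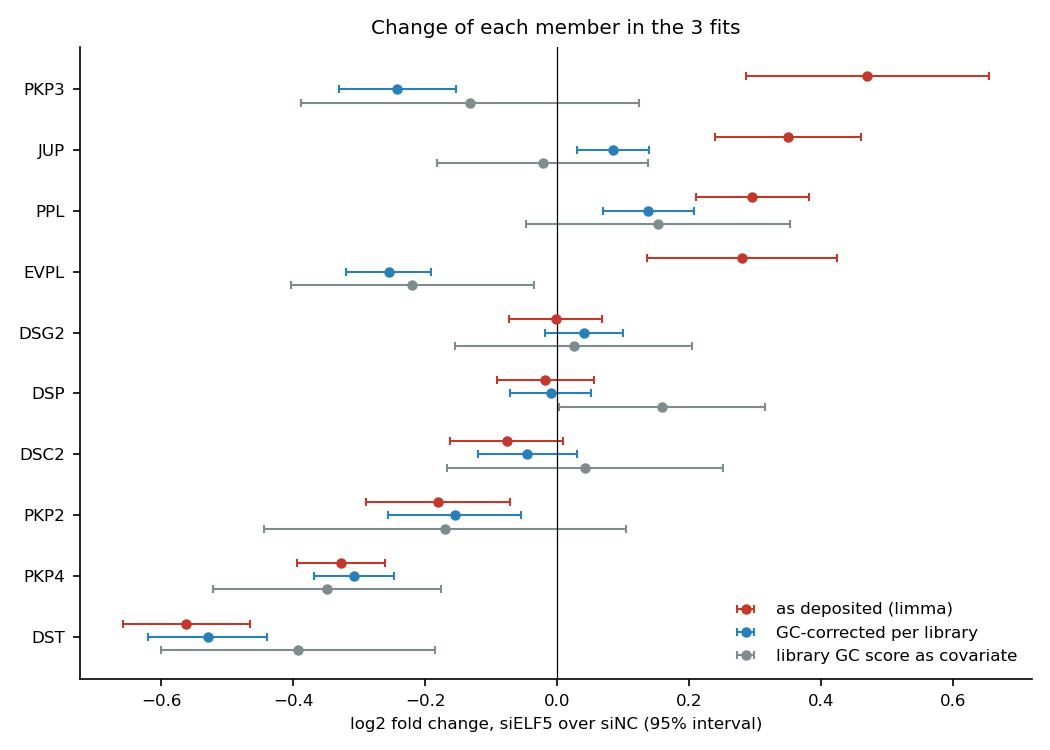
Log2 fold change of each member with its 95% interval in the fit of the deposited values (red), after GC correction per library (blue) and with the library GC score as covariate (grey). DST, PKP4 and PKP2 stay below 0 in all 3 fits. PKP3 and EVPL turn below 0 with either GC setting, and JUP, DSP and DSC2 change sign with the covariate, as does DSG2, near 0, with either.

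Ratios between partner genes within a library were compared for 5 pairs by an exact two-sided permutation test, whose smallest possible p with 3 against 3 libraries is 0.1. The log2 ratio of PKP4 to PKP2 was 2.12 ± 0.0658 in siELF5 and 2.27 ± 0.0293 in siNC (SD, n = 3 each), a difference of -0.15 that was -0.15 after GC correction as well (exact p = 0.1, adjusted over the 5 pairs p = 0.167). The log2 ratio of PKP3 to PKP2 was 1.45 ± 0.0744 in siELF5 and 0.80 ± 0.221 in siNC (exact p = 0.1), and the difference of 0.65 became -0.0870 after GC correction. For DSP to JUP it was 0.12 ± 0.0312 in siELF5 and 0.49 ± 0.191 in siNC, a difference of -0.37 (exact p = 0.1) that was -0.0946 after GC correction. The log2 ratio of PPL to EVPL was -0.91 ± 0.0140 in siELF5 and -0.93 ± 0.126 in siNC (exact p = 0.8), and the groups differed by 0.39 after GC correction. For DSG2 to DSC2 the difference was 0.0738 (exact p = 0.2), and 0.0861 after GC correction (exact p = 0.1), where the ratios were 1.56 to 1.64 in siELF5 and 1.48 to 1.55 in siNC, without overlap.

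The genes whose library pattern was most like that of a member were found among 13062 tested genes with a mean of at least 50, by the root mean square difference of the centred log2 values over the 6 libraries. For DST they were ACVR2B (0.0186), SAMD4A (0.0327) and PLCG1 (0.0332), with log2 fold changes of -0.57, -0.57 and -0.55. For PKP4 they were GSK3A (0.0121), C15orf57 (0.0152) and PMS2CL (0.0153), the last a pseudogene whose reads could be shared with PMS2. For DSP they were NCOA1 (0.0120), UBR2 (0.0127) and SEMA4D (0.0134).

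A pair of 7-base motifs that overlap each other, CACTAAC and ACTAACA, searched on the transcript strand, was more frequent in these data in the 3' UTRs of genes that fell (19.0% of 3433) than in those that rose (6.87% of 3448), and 12.0% of 13471 searched genes carried it. Of the members, 3 carried 1 site each, namely DST, EVPL and DSG2. Of these, DST fell, EVPL rose as deposited and fell after GC correction, and DSG2 did not pass, while PKP4 and PKP2 fell without a site. The longest 3' UTR of each gene was searched, with no allowance for its length or base composition. The motif was chosen with earlier results of these data known. Its part in these values was not tested.

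The other genes of the junction were taken from 7 lists with 35 genes, of which 24 were tested. As deposited 9 rose and 9 fell (23.8% and 23.3% of all tested genes) and 6 did not pass. After GC correction 5 rose and 15 fell (21.5% and 28.6% of all), and with the GC score as covariate 2 rose and 4 fell (3.17% and 3.98% of all). The remaining desmosome genes were low or fell. DSC1 averaged 42.4 ± 2.25 in siELF5 and 117 ± 6.76 in siNC (SD, n = 3 each), a fall of 1.44 on the log2 scale (SE 0.186, limma adjusted p = 4.5e-05). PKP1, the plakophilin of stratified epithelia, fell by 1.80 (SE 0.32) to a mean of 17.4 in siELF5, against 63.1 in siNC, and PERP, a p53-induced membrane protein of desmosomes, fell by 0.17 (SE 0.0407). All 3 also passed after GC correction. With the GC score as covariate none did, where the log2 fold changes were -1.26 for DSC1, -1.58 for PKP1 and -0.15 for PERP and the standard errors had grown to 0.536, 0.864 and 0.101. DSG1 had 0 reads in every library, and DSG3 and DSG4 had at most 2 in any library.

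Among the other plakins, MACF1, the spectraplakin closest to DST, fell by 0.30 (SE 0.0525, limma adjusted p = 0.000467). It remained lower after GC correction (-0.26) and did not pass with the GC score as covariate (-0.18). PLEC and EPPK1 rose by 0.27 and 0.64, but their GC contents were 67.0% and 68.1%, and the groups overlapped for PLEC. After GC correction PLEC and EPPK1 had -0.47 and -0.24 and passed downward. With the GC score as covariate PLEC fell (-0.53, limma adjusted p = 0.000305) and EPPK1 did not pass (0.07, limma adjusted p = 0.754). EPPK1 is built of near-identical repeats, so its count is uncertain.

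Keratins, the filaments that DSP and DST hold, fell in part. KRT8 fell by 0.41 (SE 0.041, limma adjusted p = 5.75e-06) and KRT18, its pairing partner, by 0.45 (SE 0.033, limma adjusted p = 3.68e-07), and both passed downward in all 3 fits, although both have processed pseudogenes that could share reads. The values for KRT19 and KRT7 were -0.03 and 0.04 as deposited, where neither passed, and -0.31 and -0.31 after GC correction, where both fell. Neither passed with the GC score as covariate. Of the hemidesmosome genes, ITGA6, the laminin-binding integrin chain, rose by 0.30 (SE 0.0427). It passed after GC correction (0.36) and did not with the GC score as covariate (0.28, limma adjusted p = 0.153). ITGB4 (0.13) and CD151 (-0.00919), both GC-rich, did not pass as deposited. ITGB4 fell after GC correction (-0.29, limma adjusted p = 8.02e-06) and with the covariate (-0.40, limma adjusted p = 0.021), and CD151 fell after GC correction (-0.34, limma adjusted p = 4.3e-07) and did not pass with the covariate (-0.21). COL17A1 had at most 7 reads in any library.

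CTNNB1, beta-catenin, the relative of JUP in adherens junctions, rose by 0.42 (SE 0.0265, limma adjusted p = 9.37e-08) and passed in all 3 fits. CTNND1 fell by 0.18 (SE 0.0658) and passed narrowly after GC correction (-0.15, limma adjusted p = 0.0492), but had 0.0888 with the covariate (limma adjusted p = 0.813). ARVCF, a GC-rich gene, rose by 0.54 (SE 0.124) and stood at -0.08 after GC correction and -0.23 with the covariate, passing in neither. CDH1 did not pass (0.05, limma adjusted p = 0.133). All 4 enzymes that act on desmosomal proteins rose, against 23.8% of all tested genes; after GC correction 3 rose (21.5% of all), and with the GC score as covariate 1 did (3.17% of all). ADAM10 rose by 0.32 (SE 0.031, limma adjusted p = 3.95e-06) and passed in all 3 fits, and ADAM17, which cuts the outer part of DSG2, rose by 0.21 (SE 0.0516). PRKCA, a kinase that governs the calcium dependence of desmosomes, rose by 0.36 (SE 0.0867), and TGM2, a cross-linking enzyme, rose by 0.51 (SE 0.192). TGM2 did not pass after GC correction (0.46, limma adjusted p = 0.0622), and the value for PRKCA was 0.0463 with the covariate (limma adjusted p = 0.936). Of the cornified envelope genes, IVL, involucrin, which is cross-linked to EVPL and PPL in skin, fell by 0.73 (SE 0.0893, limma adjusted p = 3.02e-05) and TGM1, the enzyme that does so, by 0.41 (SE 0.12). Both passed after GC correction, and neither did with the GC score as covariate (-0.73 for IVL, limma adjusted p = 0.0823; -0.60 for TGM1, limma adjusted p = 0.284). LOR had 0 reads in every library. SPRR1B, SPRR3 and, among the desmosome genes, DSC3 were under the filter on low values, as was CTNND2 of the p120 relatives.

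**Figure D5:**
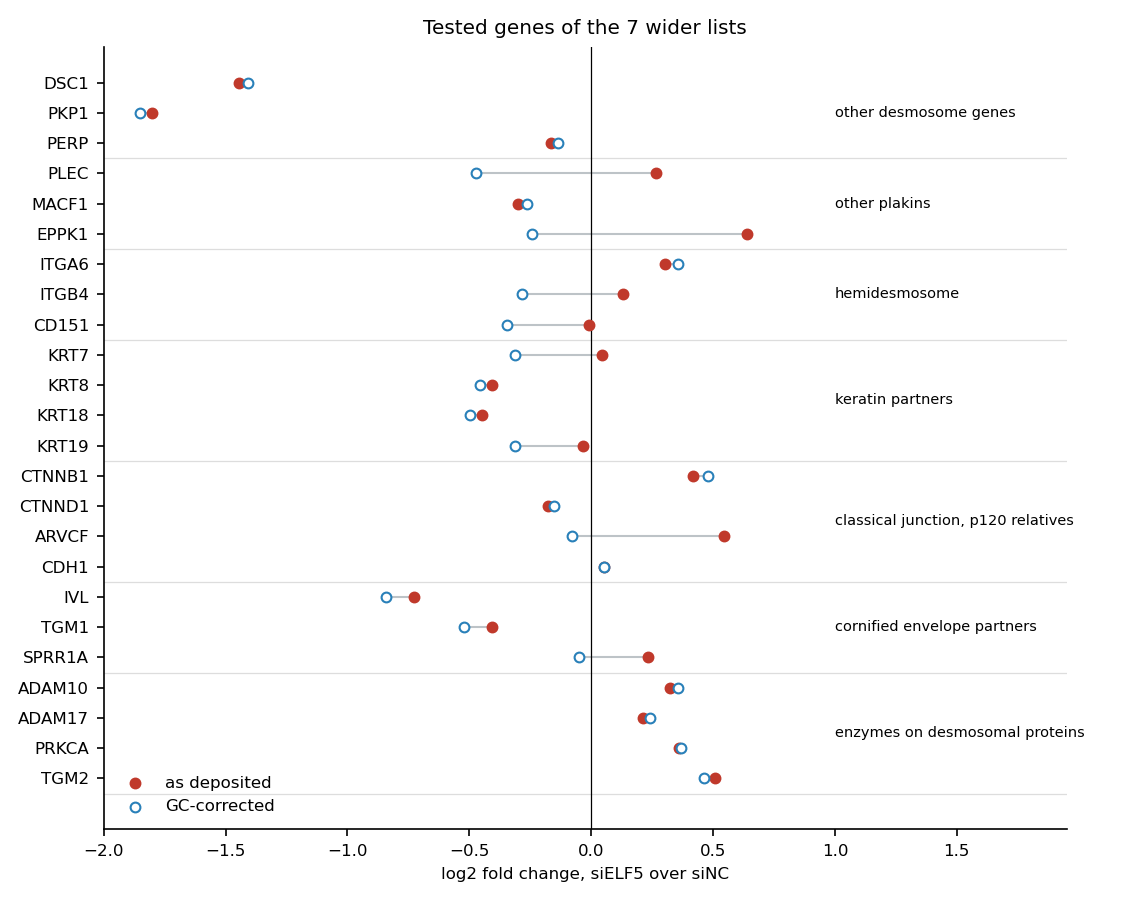
Log2 fold change of siELF5 over siNC for the 24 tested genes of the 7 lists, as deposited (filled) and after GC correction (open). PLEC, EPPK1, ITGB4, KRT7, ARVCF and SPRR1A cross 0 on correction, and KRT8, KRT18, CTNNB1 and ADAM10 stay on their side.

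Of the 5 basal or myoepithelial markers tested, 2 rose, against 23.8% of all tested genes. ACTA2 rose by 1.05 (SE 0.0831, limma adjusted p = 6.91e-07) and TP63 by 0.32 (SE 0.123). KRT17 (0.03), MYLK (-0.02) and OXTR (-0.24) did not pass. With the GC score as covariate ACTA2 passed (0.90) and TP63 did not (0.42, limma adjusted p = 0.549). The summed level of the 7 listed was 1736 to 1836 in siELF5 and 1334 to 1409.8 in siNC. ACTA2 averaged 739 in siELF5 and 356 in siNC, and MYLK 654 in siELF5 and 664 in siNC. The part of these markers in the values of the members was not tested.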

How the data were processed

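RNA-seq of T47D total RNA covered 3 siELF5 and 3 siNC libraries made with a kit that does not mark strand. The build hg19 and the tools STAR 2.6, Subread, featureCounts 1.6.3 and DESeq2 1.22.1 are named, per the submitters' processing notes; their order, settings and counting options are not stated. The deposited per-library values are signal values, whose spacing shows gene counts divided by 1 size factor per library (100% of non-zero values whole within 1e-06); they are called normalised read counts. The deposited log2 fold changes, test score and p-values are the authors' own, per the file headers, and entered no test.

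The main test was limma 3.58.1 (R 4.3.3) two-sided, with a trend of variance on intensity and no covariates, on log2(value + 1) of the 16032 genes averaging at least 10, adjusted by Benjamini-Hochberg over all of them at 0.05. Fold changes are on that scale, which understates low genes. edgeR 4.0.16 and DESeq2 1.42.0 ran on the recovered reads. The code was tested on simulated data. GC content came from the longest GENCODE 29 transcript (93.1% of tested genes). For the GC correction a loess curve of deviation on GC (span 0.3) was taken off in each library; the GC score compares median deviations of the highest and the fifth of 10 GC classes, and entering it also absorbs some of the group difference. Transcript lengths, exon overlaps, sequences and promoter coordinates are those of GRCh38, were matched by gene symbol, and were joined to no hg19 position. Replicates of a group differed by more than sampling noise (chi-square per degree of freedom 4.37 to 12.0). Members, lists, the motif and tests were chosen with earlier results of these data known. All 10 members were named, with ELF5, list genes past the threshold, members of a list under the filter, and the 3 nearest patterns of DST, DSP and PKP4. CDH1, KRT1, KRT7, KRT17, KRT19, ITGB4, CD151, MYLK, OXTR and SPRR1A, which did not pass in the main test, were named after their values were seen.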

Additional observations from a re-analysis of the deposited data

How the results depend on the processing

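Under 17 alternatives DST and PKP4 kept their direction and passed each time, with limma log2 fold changes of -0.61 to -0.51 and -0.34 to -0.31 when 1 library was left out. Leaving out any 1 library gave 7 members and 6167 to 7324 genes past the threshold. edgeR called 7578 genes and DESeq2 7292, and each called 7 members. With the GC score as covariate 2 members and 1147 genes passed; PPL (0.15) and PKP2 (-0.17) lost their calls, and EVPL (-0.22), PKP3 (-0.13) and JUP (-0.0219) changed sign. With GC correction EVPL (-0.26) and PKP3 (-0.24) changed sign, as did the ratio of PKP3 to PKP2 (-0.0870), and 7471 genes passed. Without an intensity trend EVPL lost its call (0.28, limma adjusted p = 0.0668), and 6 members and 6355 genes passed. The lowest limma adjusted p for EVPL, 3.49e-06, and the highest, 0.153, came from the GC settings, where its value was below 0. The ratio of PPL to EVPL ran from -0.0491 to 0.0768 when 1 library was left out, and was -0.0491 without siNC replicate 3; for the other 4 ratios the ranges were 0.0564 to 0.0947 (DSG2 to DSC2), 0.52 to 0.73 (PKP3 to PKP2), -0.18 to -0.11 (PKP4 to PKP2) and -0.46 to -0.27 (DSP to JUP). The cause of these shifts was not tested. Libraries of the same replicate number showed little shared deviation (correlations of deviations 0.0146, -0.0345 and -0.0560 for numbers 1, 2 and 3). This cannot tell whether they shared a culture or batch. With a replicate block 7174 genes and 7 members passed. Counting error is larger for low genes such as SPRR1A, DSC1, PKP1 and TGM2; its effect was not tested.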
